A study of Saccharomyces cerevisiae with 12 samples.

Results

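The ribosomal DNA (rDNA) of Saccharomyces cerevisiae lies on chromosome XII, and the features in it and beside it were followed through the polysome mRNA-Seq libraries of the wildtype and the ΔES27Lb strain. They were taken by name: every identifier that starts with RDN, ETS, ITS or NTS, and every identifier from YLR154 to YLR163 with any suffix. This gave 40 of the 7126 features counted in the 12 libraries, of which 14 had an RDN name and 26 a YLR name, while 0 had an ETS, ITS or NTS name. Among them were the 35S pre-rRNA (RDN37), the 5S rRNA (RDN5) and the mature 25S, 18S and 5.8S rRNAs (RDN25, RDN18, RDN58). The 4 copies of ASP3 between repeats of the 5S gene, a Ty1 retrotransposon and a set of short reading frames of unknown role were also included. RNH203 and MAS1 border the group on its left and right side.

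The rDNA of yeast is a tandem array. RNA polymerase I transcribes the 35S precursor, which is cut into 18S, 5.8S and 25S rRNA, and RNA polymerase III transcribes the 5S rRNA from the same repeat. Neither RNA carries a poly(A) tail as a rule, and short poly(A) tails are known as a mark that nuclear surveillance adds to aberrant pre-rRNA before degradation. ASP3 encodes the cell-wall asparaginase, which releases ammonium from external asparagine and is known to be induced when nitrogen is scarce.

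Both strains derive from yJD1045, a MATa strain with ade2, ura3, leu2, his3, trp1 and can1 alleles in which the chromosomal rDNA is deleted (rdn1ΔΔ::HIS3). The 35S operon of each strain sat on a multicopy plasmid with a URA3 marker, under a tetracycline-repressible TET promoter that is transcribed by RNA polymerase II. The plasmid also holds a 5S gene with its own RNA polymerase III promoter and an 18S rRNA mutation that gives hygromycin B resistance. In ΔES27Lb, the plasmid-borne 25S rRNA lacks the b-arm of the expansion segment ES27L. Cells grew in YPD to an OD of 0.8. Poly(A)-selected RNA was sequenced from 2 pools, the whole lysate (total mRNA) and the polysomes (polysomal mRNA), with 3 replicates for each of the 4 groups. The labels number the replicates but do not say that they were separate cultures or clones, so p-values measure the spread between these samples, which may be technical. A total and a polysomal library of the same strain and number are called a culture below, although the labels do not state this pairing. The libraries held 15050764 to 21532842 counts. The rDNA-related features together took 0.0355% to 0.04998% of the counts in wildtype total mRNA, 0.0220% to 0.0232% in wildtype polysomal mRNA, 0.0365% to 0.0490% in ΔES27Lb total mRNA and 0.0227% to 0.0305% in ΔES27Lb polysomal mRNA. Values below are in CPM, counts per 1000000 counted reads after scaling by the trimmed mean of M-values (TMM).

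Many of these features are copies of each other, which decides what a count on one of them can mean. In the R64 genome of S288C (RefSeq), RDN37-1 and RDN37-2 are identical over 6858 nucleotides, and the coding sequences of the 4 ASP3 copies are identical over 1089 nucleotides. No word of 50 or of 100 bases in RDN37, RDN5 or ASP3 is unique in that genome, whereas in RNH203 and MAS1 100% of such words are. A read from 1 copy can therefore be placed on another, and no copy-specific statement follows from the counts. The reads were aligned to the strain BY4742, so names and lengths from R64 are used here without coordinates. The 6 genes for 5S rRNA come in 2 forms in R64. They are shown because their reads can be placed only as a family: RDN5-1 and RDN5-6 share the first sequence, RDN5-2 to RDN5-5 share the second, and capitals mark the end in which the forms differ after 117 common bases (5′ to 3′, plus strand of chromosome XII).
RDN5-1: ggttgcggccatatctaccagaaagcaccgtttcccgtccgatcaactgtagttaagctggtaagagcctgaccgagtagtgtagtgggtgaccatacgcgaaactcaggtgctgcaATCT
RDN5-2: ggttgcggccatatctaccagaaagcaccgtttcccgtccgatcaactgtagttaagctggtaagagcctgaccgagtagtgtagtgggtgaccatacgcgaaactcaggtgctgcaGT

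The 40 features fell into 3 classes by count. In 12 of them the count was 0 in every library, 17 had counts with a mean below 10 per library, and 11 passed edgeR's filter on low counts and were tested with all 6003 genes that passed. A count of 0 allows up to 3 counts, which is 0.108 to 0.223 CPM depending on the library, and this limit covers counting error only. Of the 12 at 0, 8 lie inside a longer feature on the same strand. These are both copies of RDN25, RDN18 and RDN58 inside RDN37, YLR154C-G inside RDN25-2, and the gag frame YLR157C-A inside the Ty1 element. The same held across the annotation: 51 of 60 features inside another on the same strand (85%) were at 0 in every library, against 1 of 12 inside a feature on the opposite strand only (8.33%) and 50 of 6007 others (0.832%). featureCounts leaves out reads that overlap more than 1 feature unless told otherwise, and the setting used is not given in the sources used here. If it was left so, the counts on RDN37 come from the 1504 nucleotides outside the mature rRNAs, the transcribed spacers. The deletion in the 25S rRNA cannot be checked in these counts. The other 4 at 0 were RDN5-3, ASP3-2, YLR156C-A and YLR157W-E, which lie inside no other feature. RDN5-3, ASP3-2 and YLR156C-A are copies that are identical to a counted one.

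Among the tested features, the 35S pre-rRNA had the largest fold differences between the strains in total mRNA and between the pools in wildtype. In wildtype total mRNA, RDN37-1 was at 97.4, 57.1 and 92.0 CPM in replicates 1 to 3 (82.2 ± 21.9, SD, n = 3), from 1747, 1105 and 2549 counts. In ΔES27Lb total mRNA it was at 0.957, 9.31 and 6.10 CPM (5.46 ± 4.21, SD, n = 3), from 21, 201 and 82 counts. The lowest wildtype library was above the highest ΔES27Lb library, and the means differed 15.1-fold. In bulk cultures, fewer cells with an RNA and less of it per cell cannot be told apart. In polysomal mRNA, RDN37-1 was at 2.49, 0.547 and 1.06 CPM in wildtype and at 6.62, 1.33 and 3.32 CPM in ΔES27Lb, where the groups overlapped. Wildtype total mRNA therefore stood apart from the other 3 groups, which all lay below 10 CPM.

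RDN37-2 showed the same order at a lower level. It was at 41.0, 8.996 and 14.95 CPM in wildtype total mRNA and at 0.0456, 1.48 and 0.818 CPM in ΔES27Lb total mRNA. In polysomal mRNA it had 0, 2 and 1 counts in wildtype and 29, 1 and 0 counts in ΔES27Lb. The 1324 counts in wildtype total mRNA against 3 in wildtype polysomal mRNA give a ratio of 312.2 after scaling, with an interval of 106.6 to 1516 (95%, Clopper-Pearson, counting error only). In the 6 libraries with at least 10 counts on RDN37-2, RDN37-1 had 2.37 to 7.45 times as many. The lowest of these ratios was that of wildtype total mRNA replicate 1, in which RDN37-2 was highest.

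**Figure D1:**
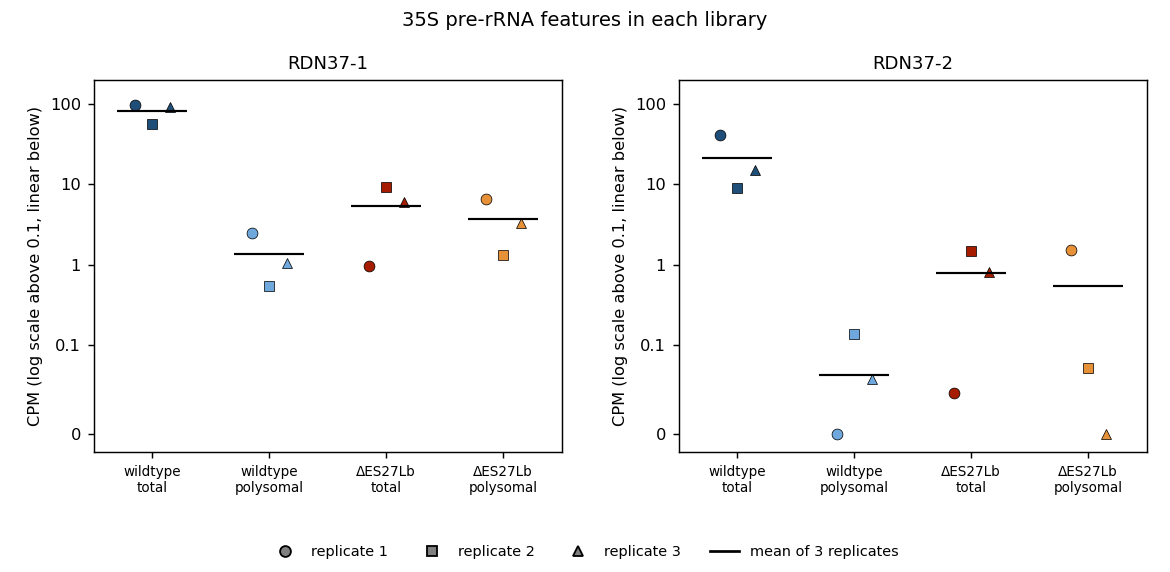
CPM of RDN37-1 (left) and RDN37-2 (right) in each of the 12 libraries, by strain and mRNA pool, on an axis that is logarithmic above 0.1 CPM and linear below. Points are replicates and lines are means of 3. The 3 wildtype total mRNA libraries lie at 57.1 to 97.4 CPM for RDN37-1, above all 9 other libraries, and ΔES27Lb total mRNA replicate 1 is the lowest of its group for both.

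Between the strains, the fitted log2 difference of RDN37-1 in total mRNA was -3.92 ± 0.74 (SE), and it did not pass edgeR's quasi-likelihood test (adjusted p = 0.511, rank 2 of the 6003 genes by p). DESeq2's Wald test on the same counts gave a log2 difference of -3.92 with an adjusted p of 7.21e-05, and it stayed called when any of the 12 libraries was left out (adjusted p between 1.06e-05 and 0.0312). Without ΔES27Lb total replicate 1, the lowest library, DESeq2 gave -3.42. RDN37-2 had a log2 difference of -4.78 ± 1.09 (adjusted p = 0.747 with edgeR). In polysomal mRNA, the log2 differences were 1.47 ± 0.77 for RDN37-1 and 3.03 ± 1.66 for RDN37-2, each with an adjusted p of 1 in edgeR.

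In wildtype, RDN37-1 had a P/T, the polysomal level over the total level, far below 1. Its log2 P/T was -5.90 ± 0.84 (SE; adjusted p = 0.0325 with edgeR), and the mean in total mRNA was 60.3 times that in polysomal mRNA. This call did not hold in edgeR without wildtype total replicate 1 or 2 (adjusted p = 0.0643 and 0.0618), without wildtype polysomal replicate 1, 2 or 3 (0.118, 0.161 and 0.131), or without replicate 3 of either ΔES27Lb pool (0.0531 for total and 0.0651 for polysomal mRNA), although the log2 P/T stayed between -6.64 and -5.54. With DESeq2 it held in each of the 12 fits that left out 1 library. RDN37-2 had a log2 P/T of -8.22 ± 1.45 in wildtype, which rests on 3 polysomal counts and missed the threshold without a block (adjusted p = 0.0619 with edgeR). It passed with DESeq2 (-8.35, adjusted p = 4.75e-04), with library totals as the only scaling (0.0341), with scaling to ACT1, GCN4 and TAF10 (0.0399) and with the culture as a replicate block (-8.11, adjusted p = 0.0116). RDN37-1 passed with the block too (-6.01, adjusted p = 0.0116).

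In ΔES27Lb the 3 cultures disagreed on P/T. The log2 P/T of RDN37-1 in single cultures was -5.27, -6.62 and -6.40 in wildtype and 2.76, -2.78 and -0.87 in ΔES27Lb. Replicate 1 of ΔES27Lb was the only one of the 6 with more RDN37-1 in polysomal than in total mRNA, and its total mRNA library was the lowest of its group. The fitted log2 P/T in ΔES27Lb was -0.51 ± 0.70 (adjusted p = 0.705 with edgeR). Between the strains, P/T differed by 5.39 ± 1.052 on the log2 scale with an adjusted p of 1 in edgeR, although RDN37-1 had the smallest unadjusted p of the 6003 genes (2.21e-04). DESeq2 gave 5.40 with an adjusted p of 3.4e-04, which did not hold without wildtype total replicate 3 (5.32, adjusted p = 0.42). An exact two-sided permutation test of the 3 against 3 culture values gave p = 0.1, the smallest this design allows.

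Other RNAs that are not mRNAs were read beside RDN37 in the same libraries. The 81 snoRNAs summed to 197.6 to 378.3 CPM in wildtype total mRNA and 218.2 to 315.8 CPM in ΔES27Lb total mRNA, and the ranges overlapped. The 299 tRNAs were higher in ΔES27Lb total mRNA (70.1 to 171.7 CPM) than in wildtype (47.1 to 63.4 CPM). The 2 mitochondrial rRNAs were at 110.4, 70.5 and 90.8 CPM in wildtype total mRNA and at 8.48, 68.3 and 93.7 CPM in ΔES27Lb. U2 snRNA was at 67.4, 33.7 and 25.6 CPM in wildtype and at 10.2, 25.4 and 40.3 CPM in ΔES27Lb. Telomerase RNA was at 69.1, 69.0 and 40.4 CPM in wildtype total mRNA and at 74.4, 52.6 and 47.6 CPM in ΔES27Lb. ΔES27Lb total replicate 1 was the lowest total mRNA library for the mitochondrial rRNAs, for U2 and for both RDN37 features. It was not the lowest for snoRNAs (289.7 CPM) or tRNAs (106.8 CPM), and it was the highest for telomerase RNA. Every polysomal library lay below every total mRNA library of its strain for snoRNAs (70.5 to 85.0 CPM), tRNAs, telomerase RNA and U2. The mitochondrial rRNAs did so in wildtype, whereas in ΔES27Lb polysomal replicate 1 (10.1 CPM) was above total replicate 1. The part of these RNAs or of poly(A) selection in the RDN37 difference was not tested.

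The 5S rRNA varied far less between the groups. RDN5-1 was at 22.0, 20.5 and 22.4 CPM in wildtype total mRNA and at 23.4, 17.7 and 20.5 CPM in ΔES27Lb total mRNA. In polysomal mRNA it was at 15.4, 10.9 and 11.96 CPM in wildtype and at 10.9, 13.4 and 16.7 CPM in ΔES27Lb. In each strain every total mRNA library was above every polysomal one, and the strains overlapped in both pools. RDN5-2 was at 3.46 to 3.51 CPM in wildtype total mRNA and 1.83 to 2.37 CPM in polysomal mRNA. In ΔES27Lb, RDN5-2 was at 4.10, 3.94 and 3.35 CPM in total and at 1.64, 0.885 and 3.39 CPM in polysomal mRNA, which overlapped.

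In total mRNA the log2 difference between the strains was -0.08 ± 0.22 for RDN5-1 (adjusted p = 0.937) and 0.13 ± 0.40 for RDN5-2 (adjusted p = 0.941). With the 6 copies summed it was -0.03 ± 0.21, where the summed 35S features had -4.06 ± 0.78 (adjusted p = 0.548), all by edgeR. The log2 P/T of RDN5-1 was -0.76 ± 0.22 in wildtype (adjusted p = 0.0987 with edgeR, 0.0203 with the replicate block) and -0.59 ± 0.22 in ΔES27Lb (adjusted p = 0.292). The wildtype value was -0.78 with the block and -0.74 with DESeq2 (adjusted p = 0.0327), so the call and not the size of the value depended on the fit. The DESeq2 call was lost without any 1 of the 3 wildtype polysomal libraries or wildtype total replicate 1 or 2 (adjusted p between 0.053 and 0.149). It was also lost without wildtype total replicate 3, just above the threshold (0.05 after rounding). For length, RDN5-1 had 178.8 CPM per kilobase in wildtype total mRNA, against 11.98 for RDN37-1 over its whole length. If reads on the mature rRNAs were left out of the counting, the value for the part outside them was 54.6. With poly(A) selection and reads shared among copies, these values compare counts and not amounts of RNA. In ΔES27Lb total mRNA these levels per kilobase were 169.7, 0.796 and 3.63.

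YLR154C-H, an uncharacterised reading frame, overlaps RDN5-2 by 105 of its 132 nucleotides on the opposite strand. It was at 13.6, 1.55 and 10.7 CPM in wildtype total mRNA and at 28.4, 30.1 and 21.6 CPM in wildtype polysomal mRNA. In ΔES27Lb it was at 6.34, 3.94 and 5.50 CPM in total and at 19.8, 11.5 and 18.1 CPM in polysomal mRNA. In both strains every polysomal library was above every total one, the opposite order to RDN5-2 in wildtype. The polysomal levels of ΔES27Lb all lay below those of wildtype, with a log2 difference of -0.70 ± 0.53 (adjusted p = 1 with edgeR).

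The log2 P/T of YLR154C-H was 1.63 ± 0.54 in wildtype (adjusted p = 0.105 with edgeR, 0.0198 with the replicate block, where it was 1.91) and 1.65 ± 0.55 in ΔES27Lb (adjusted p = 0.286, and 0.0624 with the block). DESeq2 gave 1.65 in wildtype (adjusted p = 0.0338), which did not hold without wildtype polysomal replicate 1, 2 or 3 (0.153, 0.0981 and 0.0708). Between the strains, P/T differed by 0.02 ± 0.73. The value in wildtype rests in part on total replicate 2, at 30 counts against 244 and 296 in the others, and without that library edgeR gave 1.14. The library kit keeps the strand, but whether the counting used it is not given in the sources used here. Of features inside another on the opposite strand only, 1 of 12 was at 0 in every library, against 51 of 60 on the same strand. Whether reads of RDN5-2 and YLR154C-H were kept apart was not tested. In R64, 3 other frames are identical to YLR154C-H and had 0 to 2 counts in all 12 libraries together.

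The Ty1 element YLR157C-B, which encodes the Gag-Pol polyprotein of a retrotransposon, was at 12.04, 13.1 and 9.39 CPM in wildtype total mRNA and at 6.08, 6.90 and 4.30 CPM in wildtype polysomal mRNA. In ΔES27Lb it was at 14.6, 12 and 4.54 CPM in total and at 8.79, 3.69 and 4.04 CPM in polysomal mRNA. Total and polysomal libraries were apart in wildtype and overlapped in ΔES27Lb, where total replicate 3 was low. Its log2 P/T was -0.998 ± 0.44 in wildtype (adjusted p = 0.158 with edgeR, 0.0221 with the replicate block) and -0.91 ± 0.44 in ΔES27Lb (adjusted p = 0.342). Of its words of 100 bases 1.93% are unique in R64, so most reads on it could come from other Ty1 elements.

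**Figure D2:**
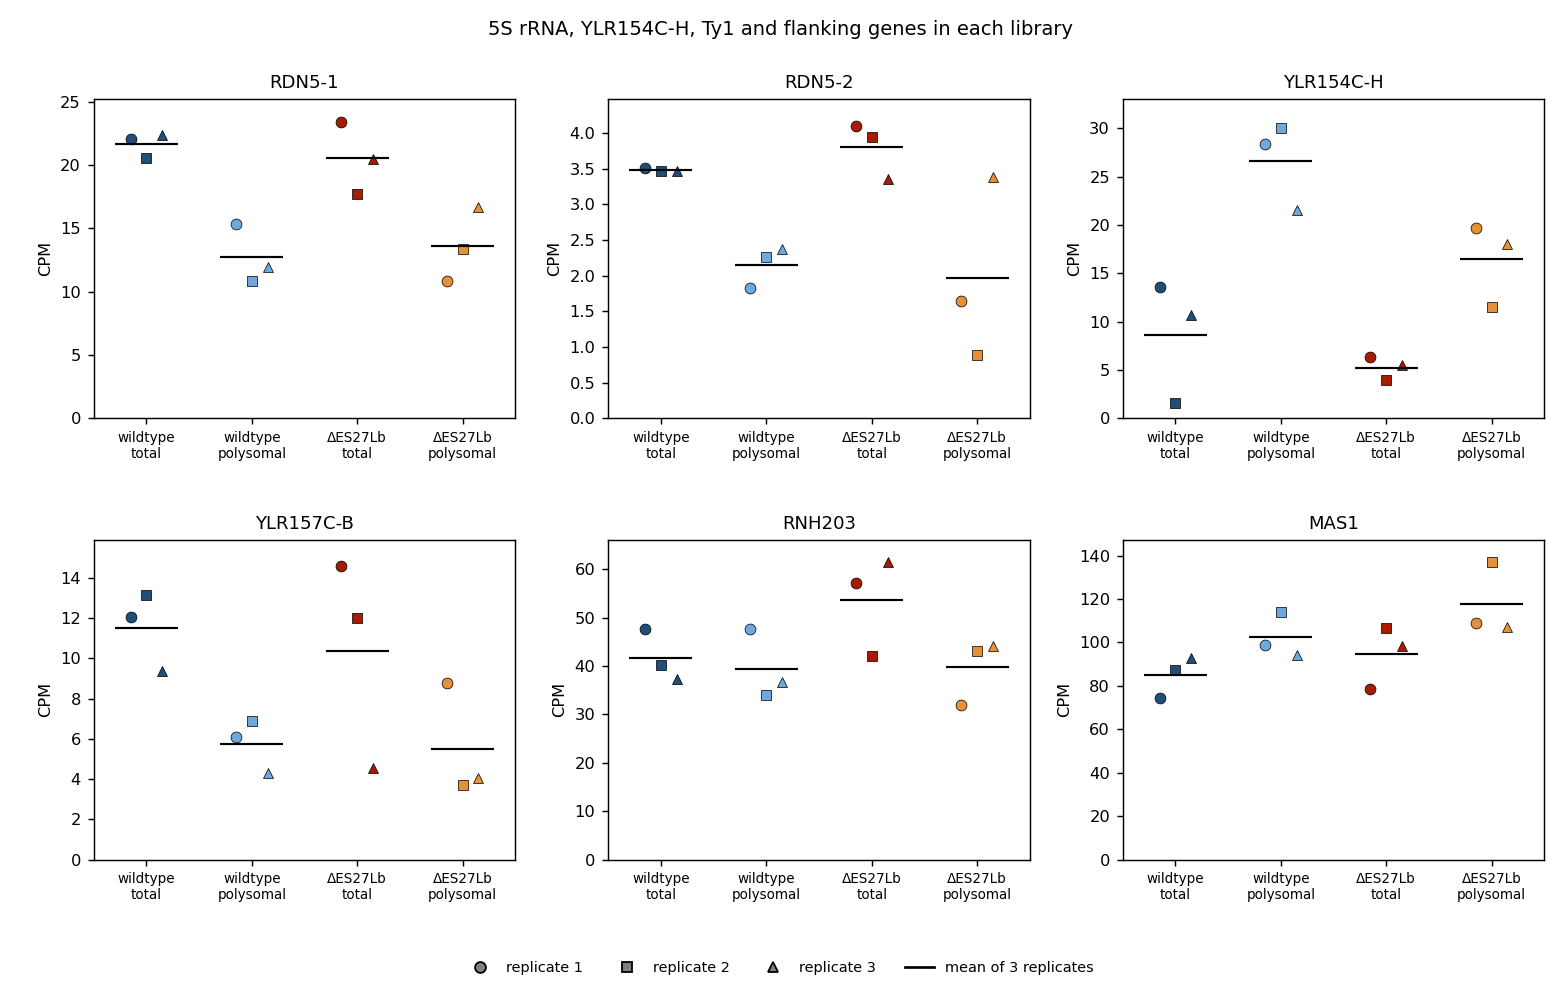
CPM of the 5S features RDN5-1 and RDN5-2, of YLR154C-H, of the Ty1 element YLR157C-B and of the bordering genes RNH203 and MAS1 in each library, on linear axes that start at 0. Points are replicates and lines are means of 3. RDN5-1 and RDN5-2 have lower means in polysomal than in total mRNA in both strains, YLR154C-H has higher ones (26.7 against 8.61 CPM in wildtype), and RNH203 and MAS1 vary little.

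Reads on ASP3 were placed on 2 of its 4 copies. ASP3-3 and ASP3-4 held nearly all of them, ASP3-2 was at 0 in every library, and ASP3-1 had 8 counts in all. ASP3-3 was at 18.0, 55.5 and 70.2 CPM in wildtype total mRNA (47.9 ± 26.9, SD, n = 3) and at 137.3, 158.7 and 133.4 CPM in ΔES27Lb total mRNA (143.1 ± 13.6, SD, n = 3). ASP3-4 was at 12.99, 27.4 and 32.8 CPM in wildtype and at 76.9, 60.3 and 71.9 CPM in ΔES27Lb. For each copy, every ΔES27Lb library lay above every wildtype library, and wildtype replicate 1 was the lowest. With the 4 copies summed, the levels were 30.9, 82.9 and 103 CPM in wildtype and 214.3, 219.1 and 205.3 CPM in ΔES27Lb, a 2.94-fold difference of the means.

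In polysomal mRNA the order was the same and the distance smaller. ASP3-3 was at 37.6, 40.4 and 45.9 CPM in wildtype polysomal mRNA and at 50.2, 86.9 and 71.3 CPM in ΔES27Lb. ASP3-4 was at 18.0, 20.6 and 24.9 CPM in wildtype and at 31.1, 58.8 and 34.4 CPM in ΔES27Lb. Again no ΔES27Lb library was as low as a wildtype one, and the means of the summed copies differed 1.78-fold. ASP3-3 had 1.38 to 2.63 times the counts of ASP3-4, and the lowest and highest of these ratios came from wildtype total replicate 1 and ΔES27Lb total replicate 2.

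YLR161W, a short frame next to ASP3-4 on the opposite strand, had far lower counts. It passed the count filter through the ΔES27Lb libraries, so its difference between the strains is given as values only. It had 13, 5 and 13 counts in wildtype total mRNA and 52, 48 and 20 counts in ΔES27Lb total mRNA, which is 0.484 ± 0.233 and 2.03 ± 0.47 CPM (SD, n = 3). In polysomal mRNA it had 5, 8 and 2 counts in wildtype and 16, 21 and 10 counts in ΔES27Lb. Its CPM did not overlap between the strains in either pool. YLR161W had 0.176% to 2.34% as many counts as ASP3, with both extremes in wildtype. The function of the protein is not known, and 2 other frames, YLR156W and YLR159W, are identical to it in R64 and had 1 and 4 counts.

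**Figure D3:**
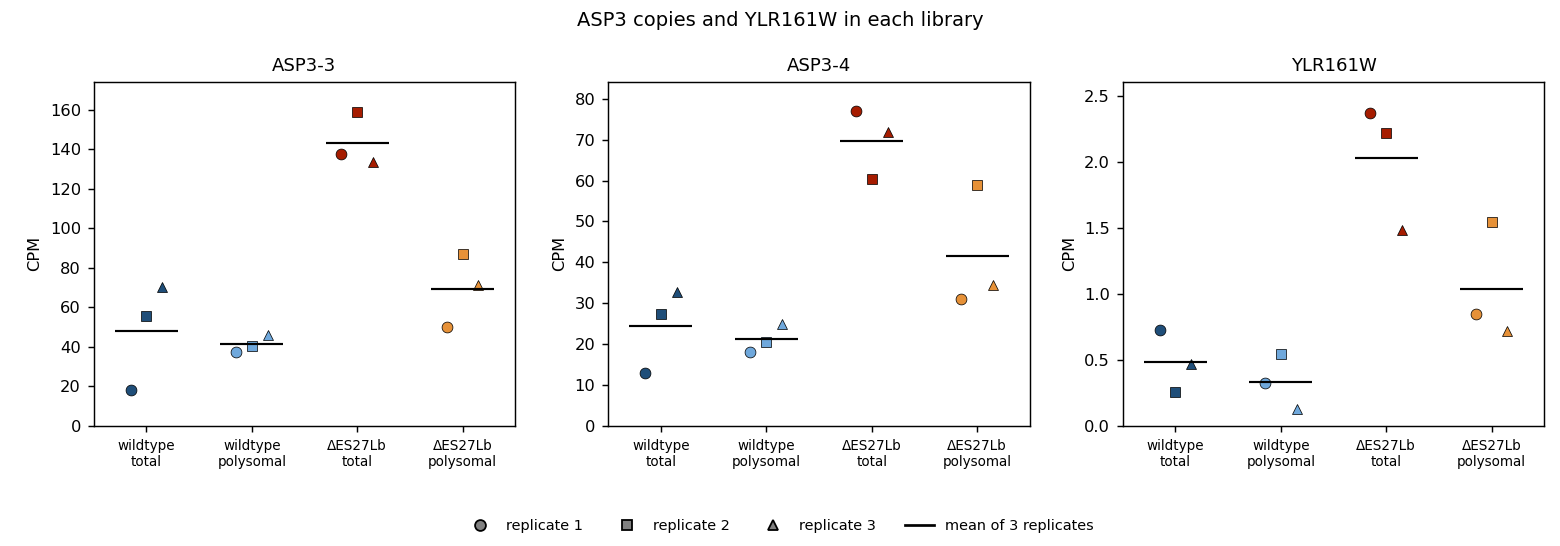
CPM of ASP3-3, ASP3-4 and YLR161W in each library, by strain and mRNA pool, on linear axes that start at 0. Points are replicates and lines are means of 3. In total mRNA every ΔES27Lb library lies above every wildtype library, for example 133.4 to 158.7 against 18.0 to 70.2 CPM for ASP3-3. YLR161W passed the count filter through the ΔES27Lb libraries.

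Between the strains, neither ASP3-3 nor ASP3-4 passed edgeR's test after adjustment over all genes. In total mRNA the log2 difference was 1.58 ± 0.39 for ASP3-3 (adjusted p = 0.747) and 1.51 ± 0.33 for ASP3-4 (adjusted p = 0.747). The summed ASP3 copies had 1.56 ± 0.37 (adjusted p = 0.748). With DESeq2, ASP3-4 passed with a log2 difference of 1.51 (adjusted p = 0.0358), but it kept the call in only 4 of the 12 fits that each left out 1 library. It lost it without any 1 of the 3 ΔES27Lb total libraries (adjusted p between 0.11 and 0.322), wildtype total replicate 1 or 2 (0.147 and 0.0885), wildtype polysomal replicate 1 or 2 (0.0562 and 0.0825) or ΔES27Lb polysomal replicate 3 (0.0719). In edgeR, leaving out wildtype total replicate 1 lowered the difference of ASP3-3 to 1.19. In polysomal mRNA the log2 differences were 0.75 ± 0.38 for ASP3-3 and 0.97 ± 0.33 for ASP3-4, each with an adjusted p of 1.

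The P/T of ASP3 lay on both sides of 1 in the wildtype cultures and below 1 in the 3 of ΔES27Lb. The log2 P/T of ASP3-3 in single cultures was 1.07, -0.46 and -0.61 in wildtype and -1.45, -0.87 and -0.90 in ΔES27Lb, and the strains did not overlap. The fitted wildtype value was -0.21, and -0.60 without total replicate 1. For ASP3-4 the values were 0.47, -0.41 and -0.39 in wildtype and -1.30, -0.03 and -1.06 in ΔES27Lb, which overlapped. In ΔES27Lb the fitted log2 P/T of ASP3-3 was -1.04 ± 0.38, which missed the threshold without a block (adjusted p = 0.292 with edgeR) and just passed with it (-1.07, adjusted p = 0.0498). Between the strains, P/T differed by -0.83 ± 0.54 for ASP3-3 and -0.54 ± 0.46 for ASP3-4, each with an adjusted p of 1 in edgeR and, for ASP3-3, p = 0.1 in the exact permutation test of cultures, the smallest possible. Without wildtype total replicate 1 the difference for ASP3-3 was -0.44.

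The bordering genes with unique sequence showed little difference. RNH203, a subunit of ribonuclease H2, was at 47.7, 40.1 and 37.3 CPM in wildtype total mRNA and at 57.1, 42.2 and 61.4 CPM in ΔES27Lb. In polysomal mRNA it was at 34.0 to 47.6 CPM in wildtype and 32.0 to 44.1 CPM in ΔES27Lb. MAS1, the beta subunit of the peptidase that removes mitochondrial targeting sequences, was at 74.6, 87.2 and 93.0 CPM in wildtype total mRNA and at 78.6, 106.8 and 98.4 CPM in ΔES27Lb. The strains overlapped for both genes in both pools, with log2 differences in total mRNA of 0.36 ± 0.22 for RNH203 and 0.16 ± 0.20 for MAS1 (adjusted p = 0.747 and 0.85 with edgeR). MAS1 had a log2 P/T of 0.27 ± 0.20 in wildtype and 0.32 ± 0.20 in ΔES27Lb, and scaling by library totals gave -0.15 and 0.032. Scaling to ACT1, GCN4 and TAF10 gave -5.2e-04 in wildtype and 0.27 in ΔES27Lb.

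The 17 features with low counts had 1 to 59 counts over all 12 libraries and at most 17 in a library. TAR1, a frame on the strand opposite to the 25S rRNA whose protein is found in mitochondria, had the most, with 59 counts in 11 libraries. RRT15, named after a screen for rDNA transcription, had 45 counts in 10 libraries. RDN5-5 had 38 counts in 11 libraries, of which the 3 ΔES27Lb total mRNA libraries held 13, 6 and 3 and the 3 of wildtype 1, 3 and 2. The remaining 14 had at most 26 counts each, in 1 to 10 libraries. Differences between groups were not tested for these features in edgeR, because the filter removed them.

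**Figure D4:**
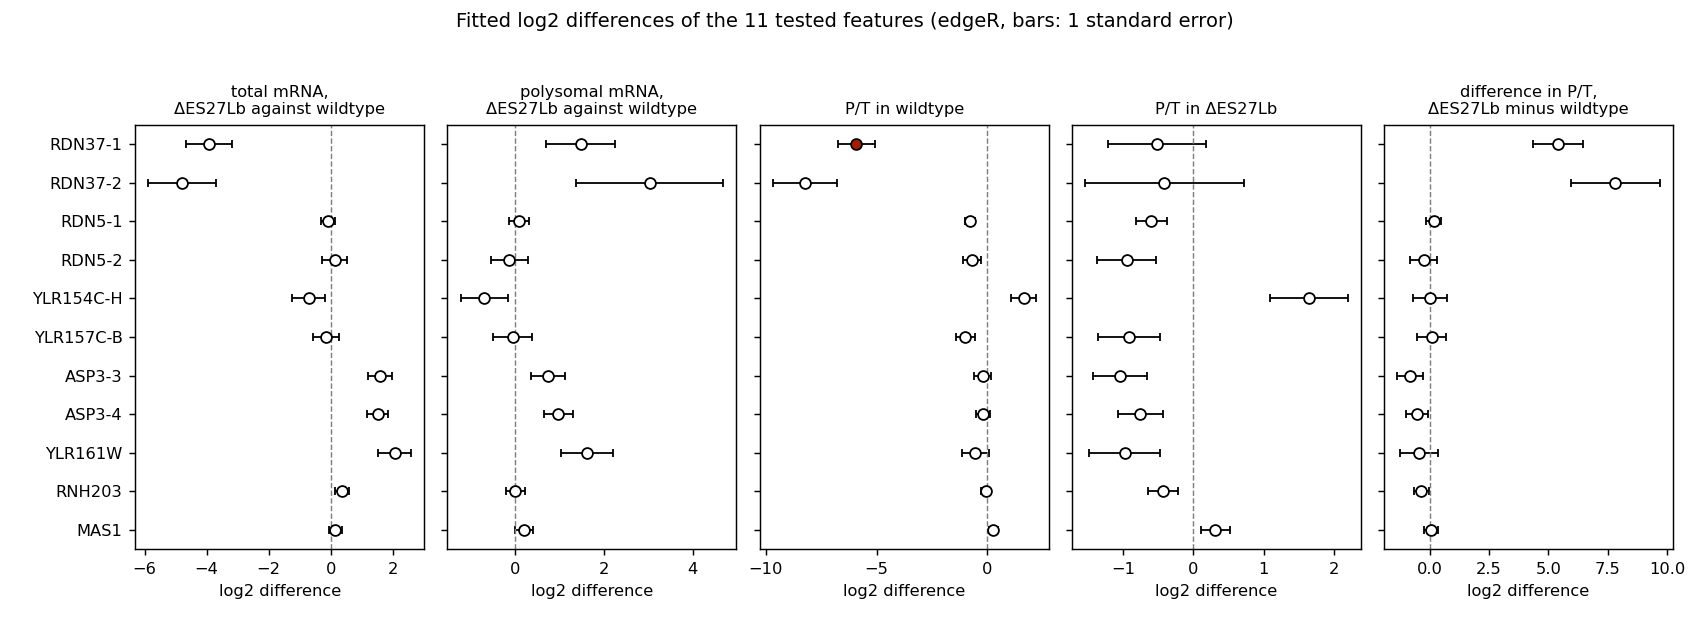
Log2 differences with standard errors from edgeR for the 11 tested features in 5 comparisons, each panel on its own axis. The filled point (RDN37-1, P/T in wildtype, -5.90) is the only one with an adjusted p of 0.05 or less. In total mRNA the 2 RDN37 features lie at -3.92 and -4.78, ASP3-3 at 1.58 and ASP3-4 at 1.51. YLR161W passed the count filter through the ΔES27Lb libraries, so nothing is read from its comparisons between the strains.

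Set beside all genes, the 11 tested features gave the following counts. In total mRNA, 0 of the 11 passed edgeR's adjusted threshold between the strains, as did 0 of 6003 genes (0%). At an unadjusted p of 0.05 or less, 5 of the 11 stood beside 5.85% of all genes (3 higher beside 3.56% and 2 lower beside 2.28%), where the 5 include 2 pairs of identical copies. With copies summed it was 3 of 8, and both counts include YLR161W. DESeq2 called 2 of the 28 with a count (RDN37-1 and ASP3-4) beside 0.0579% of the genes it tested. The groups did not overlap for RDN37-1 and RDN37-2, which were lower in ΔES27Lb (3.02% of all genes were), and for ASP3-3 and ASP3-4, which were higher (5.05%). YLR161W was higher without overlap too. With 2 to 13 counts in wildtype and 10 to 52 in ΔES27Lb, it owed its passing of the count filter to the ΔES27Lb libraries. Nothing is therefore read from its place in these counts or in those of polysomal mRNA that follow. In polysomal mRNA, edgeR called 0 of the 11 and 0% of all genes, with 2 of the 11 and 1.22% of all genes at an unadjusted p of 0.05 or less, and DESeq2 called 0 of the 28 beside 0.0579% of all genes. The ΔES27Lb libraries lay above wildtype for ASP3-3, ASP3-4 and YLR161W (3.02% of all genes) and below for YLR154C-H (2.6%).

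For P/T in wildtype, edgeR called 1 of the 11 (RDN37-1) beside 0.117% of all genes. With the replicate block it called 5 of the 11 (RDN37-1, RDN37-2, RDN5-1 and YLR157C-B lower, beside 15.6% of all genes, and YLR154C-H higher, beside 16.9%). This stands beside 32.5% of all genes in both directions, and a share of 5 in 11 is not far from that background. DESeq2 called 4 of 13 beside 12% of all genes. For P/T in ΔES27Lb, edgeR called 0 of the 11 and 0% of all genes. At an unadjusted p of 0.05 or less it had 5 of the 11, beside 15% of all genes, and 3 of 8 with copies summed. With the block it called ASP3-3, beside 6.96% of all genes, and DESeq2 called 0 of 16 beside 1.21%. Total and polysomal libraries did not overlap in wildtype for 5 features with lower polysomal levels (RDN37-1, RDN37-2, RDN5-1, RDN5-2 and YLR157C-B, beside 16.9% of all genes) and for YLR154C-H and MAS1 with higher ones (14.5%). In ΔES27Lb this held for RDN5-1, ASP3-3 and ASP3-4 with lower polysomal levels (12.6%) and for YLR154C-H and MAS1 with higher ones (9.43%). For the difference between the P/T values of both strains, edgeR called 0 of the 11 and 0% of all genes. The identical copies RDN37-1 and RDN37-2 were at an unadjusted p of 0.05 or less, beside 0.766% of all genes. With copies summed it was 1 of 8. DESeq2 called RDN37-1, beside 0.0145%. These comparisons share libraries and are not independent of each other.

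**Figure D5:**
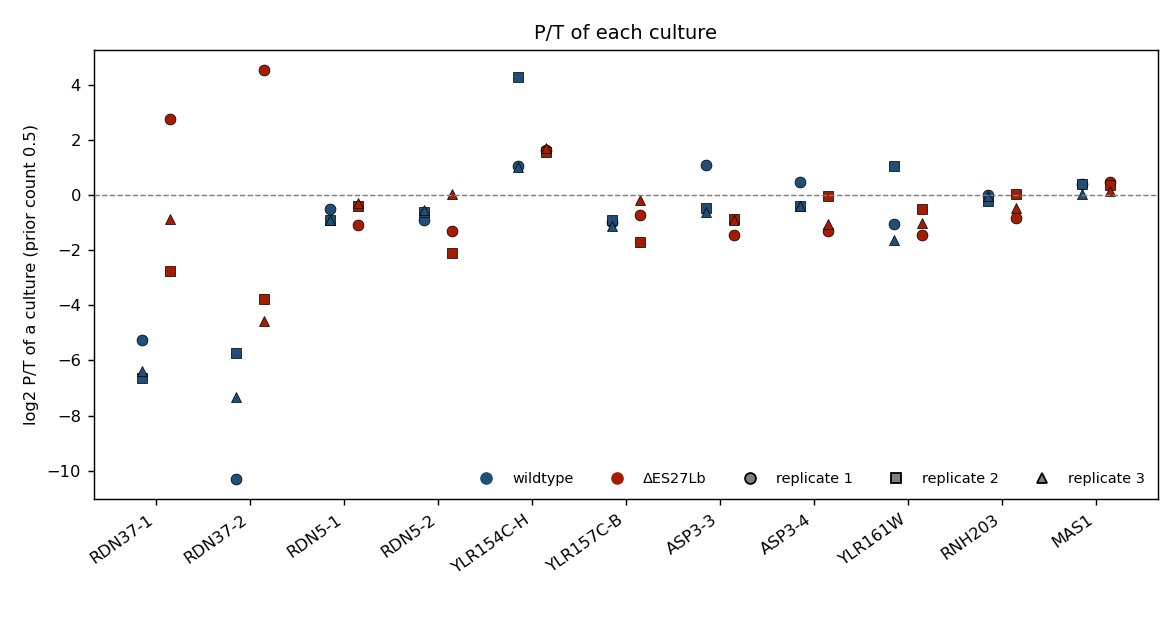
Log2 P/T of each of the 3 wildtype and 3 ΔES27Lb cultures for the 11 tested features, with 0.5 added to each count. A culture stands for a total and a polysomal library of the same strain and number. The wildtype cultures lie at -6.62 to -5.27 for RDN37-1 and the ΔES27Lb cultures at -2.78 to 2.76, while for MAS1 all 6 lie between 0.02 and 0.47.

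The genes on both sides of the locus were looked at next. On the left, 12 of 12 genes from YLR144 to YLR153 were tested and on the right 8 of 10 from YLR164 to YLR173. In total mRNA edgeR called 0 on either side. At an unadjusted p of 0.05 or less there were 5 on the left and 0 on the right, beside 5.85% of all genes. The median log2 difference in total mRNA was -0.0054 on the left and 0.04 on the right, beside -6.5e-04 for all genes. On the left, YLR149C-A, a short frame, had a log2 difference of -2.68 ± 0.55 (adjusted p = 0.667 with edgeR, 0.00588 with DESeq2, the only call there). GID11, a substrate receptor of the ubiquitin ligase that degrades gluconeogenic enzymes, had -1.22 ± 0.29, and YLR146W-A had 1.28 ± 0.37. On the right, the differences lay between -0.33 (TAG1) and 0.69 (RPS31, a ubiquitin and ribosomal protein fusion). On P/T in wildtype, edgeR called 0 on either side, with 4 on each side at an unadjusted p of 0.05 or less (28.5% of all genes were). DESeq2 called 3 on the left and 2 on the right (12% of all genes). The replicate block called 5 on the left (4 lower, 1 higher) and 5 on the right (2 lower, 3 higher). Of all genes 32.5% passed with the block, 15.6% lower and 16.9% higher.

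Genes with roles near those of ASP3 and of the rDNA were read as lists. Of 31 genes of asparagine use and nitrogen catabolite control, all of which were tested, edgeR called 0 in any of the 5 comparisons. In total mRNA, 4 were at an unadjusted p up to 0.05 (5.85% of all genes), DESeq2 called 0, and the median log2 difference was 0.12. The smallest p belonged to CAR1, arginase, with a log2 difference of 0.95 ± 0.30, GAT1, a GATA activator of nitrogen genes, with 0.71 ± 0.23, and PUT1, proline oxidase, with 0.67 ± 0.26 (adjusted p = 0.747 each). In P/T of wildtype, 12 of the 31 were at an unadjusted p up to 0.05 (28.5% of all genes) and DESeq2 called 3 (12% of all genes). With the replicate block 10 passed, which is 32.3% beside 32.5% of all genes. Of these 8 were lower (15.6% of all genes were), among them DUR12, urea amidolyase, at -0.88 ± 0.17 in the fit without the block. The other 2 were higher (16.9% of all genes were). Of 23 genes of RNA surveillance (exosome, TRAMP and related factors) edgeR called 0 and DESeq2 0 in each comparison. In total mRNA 0 of them were at an unadjusted p up to 0.05 (5.85% of all genes). Their log2 differences in total mRNA lay between -0.49 and 0.50 with a median of -0.06, among them XRN1, the cytoplasmic exonuclease, at -0.28 ± 0.19. In wildtype P/T, 6 passed with the replicate block (26.1% beside 32.5% of all genes), all higher (16.9% of all genes), among them RRP40, a subunit of the exosome, at 0.79 ± 0.34 in the fit without the block. Of 14 genes of rDNA chromatin and transcription edgeR called 0 in each comparison, and the median in total mRNA was 0.06. CSM1, which tethers rDNA repeats, had a log2 difference of 1.07 ± 0.35 and RRN5, a subunit of the upstream activation factor of RNA polymerase I, 0.52 ± 0.22. In total mRNA, 2 of the 14 were at an unadjusted p of 0.05 or less (5.85% of all genes), and DESeq2 called 0. In wildtype P/T, DESeq2 called 1 of the 14, CSM1 (adjusted p = 0.0371), beside 12% of all genes. With the replicate block 2 passed (14.3% beside 32.5% of all genes), CSM1 higher (adjusted p = 0.0133) and NET1 lower (adjusted p = 0.0285).

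The genes whose log2 CPM most resembled the pattern of these features over the 12 libraries were picked by Pearson correlation, as a description over points that share strain, pool and depth. For the summed ASP3 copies these were AYT1 (r = 0.90), PET18 (0.89), TEN1 (0.88), a proline tRNA gene (tP(UGG)O3, 0.88) and YIL080W (0.88). For RDN37-1 they were COX2, a subunit of cytochrome c oxidase encoded in mitochondria (0.92), BOI1 (0.91), NTE1 (0.91), ASI1 (0.90) and SAE2 (0.89).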

How the data were processed

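The 12 deposited files hold raw read counts per feature and library, with replicates kept apart. The authors enriched poly(A) RNA, prepared libraries with a kit that keeps the strand, used HISAT2 to align reads to BY4742 and featureCounts to count them. Versions, the annotation and the handling of strand and of reads that match several places are not given in the sources used here. Features were chosen by name, and features and gene lists were chosen with earlier results of these data known. Names, lengths and 5S sequences came from RefSeq R64, matched by name for 35 of the 40 features and 6079 of 7126 in all.

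Counts were tested with edgeR 4.0.16 (quasi-likelihood, TMM, default filter, 6003 genes, 1 mean per group, no block) in R 4.3.3, with Benjamini-Hochberg adjustment over all genes and a threshold of 0.05. DESeq2 1.42.0 was an alternative, as were other scalings and filters, a replicate block, summed copies, fits of only the libraries compared and leaving out each library. Single-culture P/T used a prior count of 0.5. Total and polysomal libraries of the same strain and number were paired as a culture by their number. Their deviations from the group means over 5152 genes correlated with r of 0.40, 0.68 and 0.90 in wildtype and 0.50, 0.20 and 0.72 in ΔES27Lb. Between the strains, same-numbered libraries gave 0.19, 0.40 and 0.43 for total and -0.11, 0.55 and 0.30 for polysomal mRNA. Libraries of unlike number were not compared, so these values do not decide whether the numbers mark cultures within a strain or pair the strains. The block by culture, the single-culture P/T and the permutation test rest on this pairing. A block by number changed no call between the strains. For P/T, the block by culture lowered the biological coefficient of variation from 0.315 to 0.193. Features with a mean of at least 10 counts were described with values, the 3 highest of the others were named, and from each list up to 3 genes with the smallest p. Plots were drawn with matplotlib 3.10.9, and sequences were read with Biopython 1.88.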

Additional observations from a re-analysis of the deposited data

Results flagged for a closer look

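The P/T of RDN37-1, the 35S pre-rRNA, differed between the strains by 5.40 on the log2 scale in DESeq2's interaction term (adjusted p = 3.4e-04). The log2 P/T was between -6.62 and -5.27 in the 3 wildtype cultures, and 2.76, -2.78 and -0.87 in the 3 of ΔES27Lb. The interaction in edgeR was 5.39 with an adjusted p of 1, and DESeq2 no longer called it without wildtype total replicate 3 (5.32, adjusted p = 0.42). The value of 2.76 belongs to ΔES27Lb replicate 1, whose total mRNA library was also low in mitochondrial rRNAs (8.48 CPM against 68.3 and 93.7) and in U2 snRNA (10.2 CPM against 25.4 and 40.3). The same library was not the lowest of its group for snoRNAs (289.7 CPM) or tRNAs (106.8 CPM). For telomerase RNA it was the highest (74.4 CPM against 52.6 and 47.6). Without that library DESeq2 gave 4.89 (adjusted p = 3.3e-05).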

How the results depend on the processing

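The number of these features past the threshold depended on the setting. Without a block, edgeR called 1 for P/T in wildtype and 0 in the other 4 comparisons. DESeq2 called 2 in total mRNA, 4 for P/T in wildtype and 1 for the difference in P/T. With library totals as the only scaling edgeR called 2 for P/T in wildtype, and with scaling to ACT1, GCN4 and TAF10 it called 2. With at least 10 counts required in every library it called 0, since RDN37-1, with 8 counts in 1 library, was then not tested. With the replicate block it called 5 for P/T in wildtype and 1 in ΔES27Lb, and changed no other call. Without 1 library at a time the count for P/T in wildtype was between 0 and 2. The repeated fits of DESeq2 without each library were chosen after seeing the data.

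Library totals moved the median log2 value of all genes by -0.47 for P/T in wildtype, -0.34 for P/T in ΔES27Lb, -0.13 in total mRNA and 0.12 for the difference in P/T, and scaling to ACT1, GCN4 and TAF10 moved it by -0.32 in the first, -0.19 in total mRNA and 0.23 for the difference. With library totals the log2 P/T of YLR154C-H in single ΔES27Lb cultures averaged 1.34. Small log2 differences changed sign. With library totals these were RNH203 (-0.035) and YLR157C-B (0.041) in polysomal mRNA and MAS1 for P/T in wildtype (-0.15). With scaling to ACT1, GCN4 and TAF10 they were RDN5-2 (-0.060) and MAS1 (-0.035) in total mRNA, YLR157C-B in polysomal mRNA (0.084) and MAS1 for P/T in wildtype (-5.2e-04). The replicate block gave YLR154C-H a difference in P/T of -0.28. With copies summed, 5S rRNA (RDN5-2) had -0.027 in total mRNA, 0.068 in polysomal mRNA and 0.095 for the difference in P/T. The cause of these changes was not tested.

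Leaving out 1 library at a time changed the sign of these values, given as ranges. In total mRNA, RDN5-1 ranged from -0.18 to 0.020 and YLR157C-B from -0.47 to 0.19. In polysomal mRNA, RDN37-2 ranged from -0.74 to 3.93, RDN5-1 from -0.071 to 0.24, RDN5-2 from -0.74 to 0.21, RNH203 from -0.095 to 0.15 and YLR157C-B from -0.58 to 0.18. For P/T in wildtype, ASP3-3 ranged from -0.60 to 0.17, ASP3-4 from -0.50 to 0.072 and RNH203 from -0.22 to 0.031. For P/T in ΔES27Lb, RDN37-1 ranged from -1.22 to 0.16 and RDN37-2 from -4.17 to 0.61. For the difference in P/T, MAS1 ranged from -0.073 to 0.14, RDN5-2 from -0.85 to 0.11, YLR154C-H from -0.46 to 0.51, YLR157C-B from -0.43 to 0.41 and YLR161W from -0.81 to 0.12. Depth limits RDN37-2, with 0 to 32 counts outside wildtype total mRNA, and YLR161W, with 2 to 52 counts over all libraries.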
